A study of Mus musculus with 172 samples.

Results

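The liver libraries of 33 BXD/RwwJ mouse lines were examined for genes whose level differed from line to line and did so again in a second pool of mice. Each line contributed 1 control pool (Ctr, mice left undisturbed) and 1 pool of mice sleep deprived for 6 h from light onset (SD), both collected at ZT6, that is 6 h after light onset. These are 66 of the 172 libraries of the study and 66 of its 86 liver libraries. Of 14107 genes in the liver tables, the 12882 with a mean log2 CPM (the log2 of counts scaled to library size) of at least 0 over the 66 libraries are described.

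The BXD lines are recombinant inbred mice: C57BL/6J (B6) and DBA/2J (D2) were crossed, and each line was brought to homozygosity by inbreeding, so that at any locus a line carries either the B6 or the D2 allele. All mice were young adult males, and the RNA of a pool came from several mice of 1 line and 1 condition. The Ctr and SD pools of a line held different animals of the same cohorts, so the line and the time at which its mice were bred and handled cannot be told apart. BXD96, BXD97 and BXD103 are sublines close to BXD48, BXD65 and BXD73, and fewer mice were pooled for BXD79, BXD85 and BXD101. B6 and D2 mice were collected at the start and again at the end of the study, which gave 4 liver libraries each (Ctr and SD in both rounds), and the reciprocal F1 hybrids gave 4 more. These parental libraries took no part in choosing any gene from the lines, except in the rule for single lines apart, described last.

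The liver is a tissue in which inbred strains are known to differ widely. Hepatocytes make most plasma proteins, among them serpins, complement and acute-phase proteins, and they carry large, tandemly duplicated gene families for detoxification, such as the cytochromes P450, glutathione S-transferases, sulfotransferases and carboxylesterases. A difference in the regulatory or coding DNA of a gene itself follows its own position in the genome, and in recombinant inbred lines neighboring genes share their parental origin, so that genes lying close together tend to separate the lines in the same way.

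Line differences were common in the liver, and a small group of them was both large and almost fully repeatable. A line effect, that is, a difference among lines beyond the difference between the Ctr and SD pools of the same line after the mean effect of SD was taken out, passed limma's F-test at an adjusted p under 0.05 in 7973 of the 12882 genes (61.9%). The unadjusted p was under 0.05 in 8761 genes. The size of the differences was given as the line standard deviation, the spread over lines left after the error between pools was removed, and their repeatability as the intraclass correlation (ICC), which is 1 where the Ctr and SD pools of a line agree fully and 0 where they are no more alike than pools of different lines. With 1 Ctr and 1 SD pool per line, the error between pools also holds any response to SD that differed between lines. The median ICC was 0.383 and the median Pearson correlation over lines of Ctr with SD levels was 0.400. The line standard deviation had its quartiles at 0.0729, 0.115 and 0.217 log2 CPM, so most of the called differences were small. It reached 0.5 in 812 genes, 1 in 213 and 2 in 52. An ICC of at least 0.8 was found in 558 genes, of at least 0.9 in 206 (1.6%), and of at least 0.95 in 54, whereas in 584 genes the estimate was 0 or lower. The 206 genes had a median line standard deviation of 0.911 log2 CPM and a median level of 4.46 log2 CPM, against a median level of 5.57 over all genes described. Low genes were called less often: a line effect passed in 41.8% of genes with a mean between 0 and 1 log2 CPM. It passed in 78.3% of those at 8 or above. These shares are without the reads per library as a covariate. Of 108 genes with at least 1 read per exonic base on average, 107 had a line effect without this covariate and 42 with it.

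**Figure D1:**
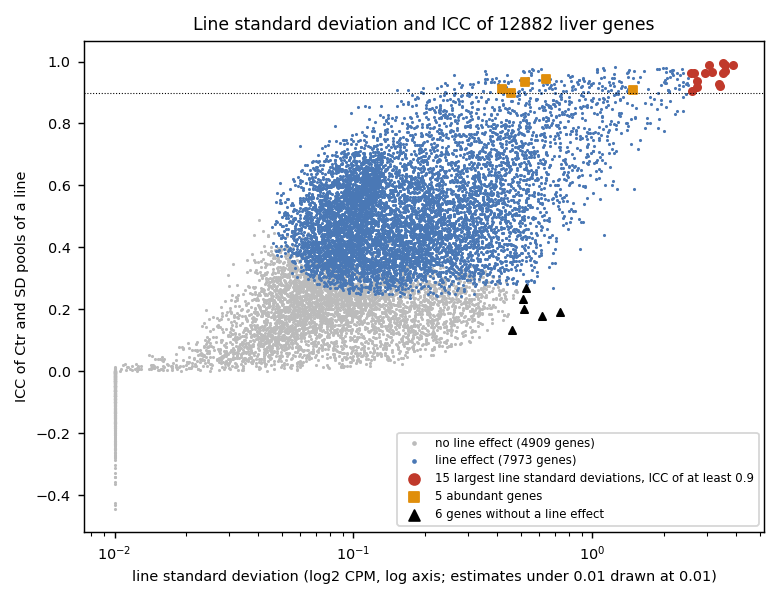
Line standard deviation (x axis, log2 CPM, log axis) and ICC of the Ctr and SD pools (y axis) of 12882 liver genes, each point a gene; 7973 genes have a line effect. The 15 genes with the largest line standard deviation at an ICC of at least 0.9 lie between 2.58 and 3.89 log2 CPM, far to the right of the median of 0.115.

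Sleep deprivation set a scale for these differences. The mean effect of SD passed limma's test in 5573 of 14107 genes (39.5%), or in 7167 with the line as a replicate block. In 11862 of the 12882 genes the lines accounted for a larger share of the sum of squares than SD did, and in 1020 SD accounted for the larger share. The lines have 32 degrees of freedom and SD has 1, so these shares describe the libraries and do not compare the strength of a single allele with that of SD.

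The libraries held between 4681101 and 8269401 reads counted on genes, with medians of 6769577 in Ctr and 6595443 in SD, and depth moved with part of the values. After removal of each gene's condition median, the Ctr and SD libraries of a line correlated with a median r of 0.609 over genes (0.359 to 0.733). For libraries of different lines the median r was 0.0433. All 33 Ctr libraries lay closest to the SD library of their own line, and 32 of 33 SD libraries to their own Ctr library. The SD library of BXD70 stood apart. It was the shallowest of all, and it was the highest or lowest SD library in 49.4% of genes. Its typical deviation from the condition median was 0.442 log2 CPM, against 0.120 for the median library. Without BXD70 the line effect passed in 8999 genes, of which 7821 were also called with it, and 201 of the 206 genes of high ICC kept an ICC of at least 0.9. The log2 CPM of 3571 genes correlated with the log2 of the reads per library at an r of 0.5 or beyond in either direction. Depth also went with the line: the log2 of the reads correlated between Ctr and SD libraries at r = 0.598 over lines. With the reads per library as a covariate, 5766 of the 7973 line effects and 204 of the 206 genes of high ICC were kept.

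The 15 genes with the largest line standard deviation among the 206 were described by their levels in both parts of the panel, with the lines split at the widest gap between neighboring line means. In 14 of them this gap took up more than 33.3% of the range of the line means, and in Tmc5 it took up less. A gene without any read stood at -2.77 log2 CPM in Ctr and -2.75 in SD, which is therefore the floor of these values. The parts were drawn from the line values and are given as a description, without a test. The parental libraries, which had no role in that choice, were tested with limma.

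Mrap2, which encodes an accessory protein of melanocortin receptors (chr9:87039140-87078880 in mm9), had the largest line standard deviation of all, 3.89 log2 CPM, with an ICC of 0.988. In 13 lines it lay between -2.77 and -1.33 log2 CPM, and in 11 of these no read was counted in either pool. In the other 20 lines its level ran from 3.81 to 6.10, with medians of 4.81 in Ctr and 5.71 in SD. No line lay between. Among these 20 lines, 18 had a higher level in the SD than in the Ctr pool, by a median of 0.66 log2 CPM. All 4 B6 libraries had 0 reads, the 4 D2 libraries averaged 5.84 log2 CPM (adjusted p = 1.6e-10, limma), with 5.56 and 5.24 in Ctr and 6.33 and 6.25 in SD. The F1 crosses averaged 4.55 and 4.57.

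Trim12a, a tripartite-motif gene of a cluster related to antiviral restriction factors (chr7:111448408-111463980), showed the opposite parental order. It lay between -2.77 and -0.50 log2 CPM in 12 lines and between 4.04 and 5.16 in 21, with an ICC of 0.987. The B6 libraries averaged 4.76 and the D2 libraries had no read (adjusted p = 9.57e-10, limma). Of the 50-base stretches of its longest protein-coding transcript, 23.5% also occur in other genes, Trim5 and Trim12c. How reads from these stretches were counted was not tested. Ifi202b, a member of the interferon-inducible p200 family (chr1:175892700-175912975), had the highest ICC of these 15 genes, 0.995. It stayed between -2.77 and -1.81 in 18 lines, 16 of them with no read in either pool, and ran from 3.09 to 5.34 in 15. It was high in D2 (4.46) and low in B6 (-2.39), with F1 levels of 3.15 and 2.96.

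Several of these genes are best known outside the liver. Olfr1033, an olfactory receptor gene (chr2:85874922-85884965), lay between -2.77 and 2.51 log2 CPM in 18 lines, 12 of them with no read in either pool, and between 4.04 and 5.72 in 15, and it was high in B6 (4.54) and low in D2 (-2.47). Acpp, the prostatic acid phosphatase gene (chr9:104190581-104240058), ran from -2.77 to 1.04 in 23 lines and from 4.63 to 6.67 in 10, with 5.67 in B6 and -2.06 in D2. Ctse, which encodes the aspartic protease cathepsin E (chr1:133534883-133572080), ranged up to 5.26 in its 21 low lines and from 6.73 to 7.22 in its 12 high lines, and no line was without reads. The highest low values of Ctse and Olfr1033, 5.26 and 2.51, were both from the Ctr pool of BXD95. Its SD pool stood at 0.07 and -1.74. The D2 mean of Ctse, 6.96, and its B6 mean of -1.06 differed by 8.03 ± 0.22 log2 CPM (SE, 4 libraries per strain, adjusted p = 3.77e-11, limma). Tmc5, a transmembrane channel-like gene (chr7:125740811-125818600), reached 1.59 at most in 14 lines and ran from 2.66 to 6.94 in 19, with 6.20 in D2 and -0.37 in B6. Adra1d, the alpha-1D adrenergic receptor gene (chr2:131371586-131388021), had medians of -1.75 in Ctr and -2.75 in SD in its 20 low lines and of 3.23 and 3.77 in its 13 high lines, and was high in D2 (3.09) and low in B6 (-2.50).

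The remaining large differences included signaling genes and genes without a known role. Sema3e, a secreted semaphorin (chr5:14025276-14256689), was the least repeatable of the 15 with an ICC of 0.903. Its 16 low lines lay between -2.77 and 0.12 log2 CPM and its 17 high lines between 1.83 and 5.72, so that the high lines differed widely among themselves. The D2 mean was 4.76 and the B6 mean -0.60. Disp2, a homolog of the Hedgehog-releasing protein Dispatched (chr2:118605455-118637029), was low in 13 lines (-2.77 to 0.35) and high in 20 (3.21 to 5.07), with 3.27 in B6 and -1.23 in D2. Serpina3h, of the antichymotrypsin-like serpins (chr12:105486115-105491879), lay between -2.77 and 0.58 in 17 lines and between 3.71 and 5.20 in 16, with 4.51 in D2 and -0.40 in B6. Nuggc, a nuclear GTPase gene whose symbol had no match in the annotation used here, was low in 14 lines (up to 1.35) and high in 19 (3.06 to 6.03), with 5.35 in D2 and -1.96 in B6. For the 3 genes known by clone or model names the separation was as wide. Gm5077 (chr6:124574584-124587055) differed by 6.38 ± 0.26 log2 CPM between D2 and B6, 2610507I01Rik (chr11:59013338-59015887) by 6.52 ± 0.43 in favor of B6, and Gm14403 (chr2:177282920-177297014) by 6.14 ± 0.17 in favor of B6 (SE, 4 libraries per strain, adjusted p of 1.32e-09, 1.38e-07 and 3.77e-11, limma). Of the 50-base stretches of Gm5077, 30.1% also occur in C1s, and of those of Gm14403, 12.6% occur in other gene models.

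**Figure D2:**
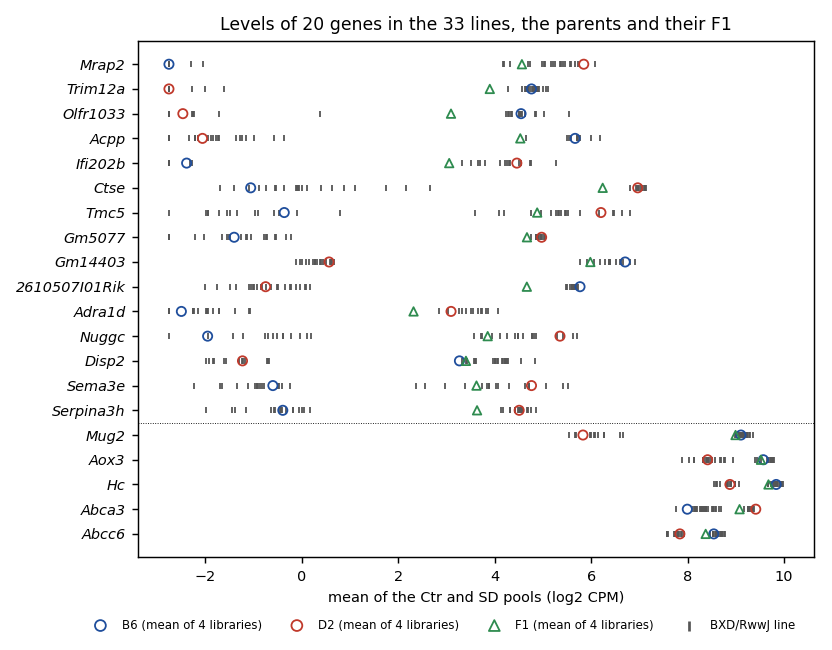
Levels of 20 liver genes in 33 BXD/RwwJ lines (vertical ticks, mean of the Ctr and SD pools, log2 CPM), with the means of 4 B6, 4 D2 and 4 F1 libraries as open symbols. The upper 15 genes have the largest line standard deviations at an ICC of at least 0.9 and the lower 5 are the abundant genes; in each of the upper 15, B6 and D2 lie in different parts, as for Mrap2 (-2.76 and 5.84).

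In all 15 genes B6 and D2 stood on opposite sides, with B6 high in 6 (Trim12a, Olfr1033, Acpp, Gm14403, 2610507I01Rik and Disp2) and D2 high in 9. The mean of the 4 F1 libraries lay nearer to the high than to the low parent on the log2 scale in all 15. Where F1 mice carry the mean of both parental levels in CPM, this is also so after the logarithm, and in 12 of the 15 genes the F1 mean lay within 0.5 log2 CPM of that parental mean. It lay above it by more in Disp2 (3.40 against 2.33) and in Gm5077 (4.67 against 3.99), and below it by more in Nuggc (3.85 against 4.36). The F1 libraries are few and no test was made of these values.

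The 5 abundant genes with the largest line standard deviation, at a mean of at least 8 log2 CPM and an ICC of at least 0.8, were described in the same way. In the most abundant liver genes the level fell as the reads per library rose, as given below. Whether this narrowed the fold differences or the changes with SD in these 5 genes was not tested. Mug2, a murinoglobulin that acts as a broad proteinase inhibitor of plasma (chr6:121956816-122035985), had the largest line standard deviation among them, 1.48 log2 CPM. Its 12 low lines lay between 4.82 and 7.45 and its 21 high lines between 8.93 and 9.37, a difference of 8.69-fold between the medians of the parts. Within the low part the level was lower in the SD pool in all 12 lines, by a median of 1.22 log2 CPM (0.58 to 2.30), with medians of 6.75 in Ctr and 5.45 in SD. In the high part the change from Ctr to SD lay between -0.18 and 0.17 in the 21 lines, with a median of -0.04. The parental libraries showed the same: D2 went from 6.47 and 6.65 in Ctr to 5.17 and 5.02 in SD, while B6 stood at 9.12 and 9.24 in Ctr and 9.02 and 9.03 in SD. Its F1 mean of 8.99 lay close to B6. Of the stretches of Mug2, 20.6% also occur in Mug1.

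The other abundant genes differed by about 2-fold. Aox3, a liver aldehyde oxidase (chr1:58169974-58257542), lay between 7.72 and 9.08 log2 CPM in 20 lines and between 9.39 and 9.91 in 13 (ICC 0.943), with 9.57 in B6 and 8.41 in D2. Hc, the gene of complement component C5 (chr2:34838851-34916958), for which D2 is a known deficient strain, lay between 8.06 and 9.10 in 15 lines and between 9.63 and 10.03 in 18, with 9.84 in B6 and 8.88 in D2. Abca3, a lipid transporter (chr17:24488895-24547146), was below 8.82 in 24 lines and between 9.17 and 9.44 in 9, with 7.99 in B6 and 9.41 in D2. Abcc6, a hepatic transporter whose D2 allele is linked to soft tissue calcification (chr7:53231750-53285672), lay between 7.36 and 8.03 in 11 lines and between 8.43 and 8.82 in 22, with 8.54 in B6 and 7.84 in D2. In these 4 genes the medians of the parts differed by 2.36-fold, 1.97-fold, 1.96-fold and 1.84-fold in the order given, and the difference between B6 and D2 passed limma's test in each (adjusted p from 1.17e-08 for Aox3 to 1.24e-06 for Abcc6).

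**Figure D3:**
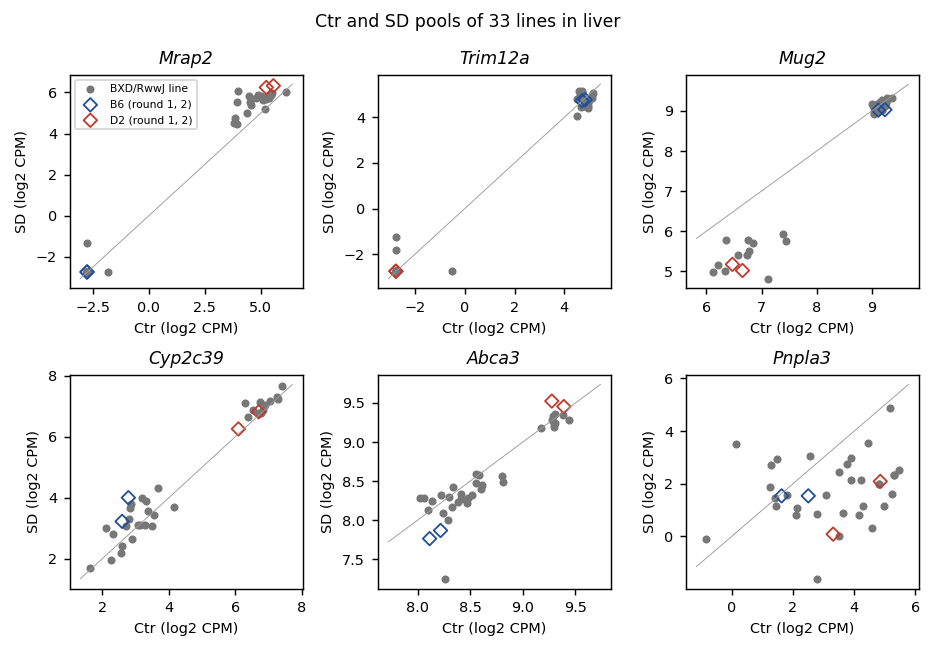
Ctr level (x axis, log2 CPM) and SD level (y axis, log2 CPM) of Mrap2, Trim12a, Mug2, Cyp2c39, Abca3 and Pnpla3 in liver, 1 panel per gene, with 33 BXD/RwwJ lines as points, both rounds of B6 and D2 as diamonds, and the line of equal levels. For Mug2 the 12 low lines fall below the line of equal levels, by a median of 1.22 log2 CPM, and the 21 high lines lie on it.

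A division into separate parts was frequent among repeatable genes. In 108 of the 206 genes the largest gap between neighboring line means took up more than 33.3% of their whole range, and in 100 of these 108 every line fell on the same side in Ctr and in SD. The low part held between 1 and 28 lines, with a median of 15, and both parts held at least 6 lines in 98 genes. B6 and D2 lay on opposite sides in 100 of the 108 genes, with B6 on the high side in 52 and D2 in 48. Both parents lay on the same side in Angel1, Fuca2, Hamp, Mup9, Phkb, Rbm20, Serpinb8 and Wnt5b.

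The parental strains gave a test that the choice of genes had not used. Among the 206 genes of high ICC, the difference between B6 and D2 passed limma's test in 201 (97.6%), whereas over all 12882 genes it passed in 2354 (18.3%). Without the second round of B6 it passed in 195 of the 206 and in 1340 of all genes, and without the first round of D2 in 198 and in 1518. It passed in 25.1% of the genes with a line effect and in 7.19% of those without. In the 201 genes B6 was the higher strain in 113 and D2 in 88, and over all genes called B6 was higher in 1245 and D2 in 1109. The reads were aligned to the B6 genome, and whether reads of D2 origin were lost over sequence differences was not tested. The genes of high ICC without a called parental difference were Angel1, Cdk5rap1, Defb1, Phkb and Wnt5b. For Defb1, a beta-defensin gene, the line means spread from -1.04 to 3.67 log2 CPM, while B6 (2.16) and D2 (2.35) stood close together (adjusted p = 0.675, limma). Cdk5rap1, which encodes a tRNA-modifying enzyme of mitochondria, spread from 4.63 to 6.74 over the lines, with 5.15 in B6 and 4.93 in D2 (adjusted p = 0.308, limma).

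Genes that separated the lines alike usually lay on the same chromosome. For each of the 15 genes the 3 genes with the most similar line means were taken, and the correlations over the 33 lines, which share libraries and linked alleles, are given as a description. For Mrap2 the closest was Me1, cytosolic malic enzyme, at r = -0.89 and 0.449 Mb away, and Cyb5r4, a cytochrome b5 reductase, followed at r = -0.86 and 0.0665 Mb. Trim12a varied with its neighbors Trim30d (r = 0.97, 0.155 Mb) and Trim34a (r = 0.97, 0.0408 Mb). Ifi202b ran opposite to Mndal, a gene of the same family (r = -0.96, 0.0201 Mb). Ctse varied with Pm20d1, a secreted enzyme of N-acyl amino acids (r = 0.91, 0.122 Mb), and Gm5077 with the complement protease gene C1rb (r = 0.96, 0.0435 Mb). Serpina3h ran opposite to Serpina1e (r = -0.96, 0.289 Mb) and with Serpina3a (r = 0.95, 0.126 Mb). Gm14403 and Gm14420, which lie 0.0201 Mb apart, agreed at r = 1.00. Sema3e was different: its closest genes were Hdac1 and Iqcc on chromosome 4 and Pbxip1 on chromosome 3, at r between -0.68 and 0.67, and none lay on its own chromosome.

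The same count was made for all genes with a position. The gene with the most similar line means lay on the same chromosome for 90.0% of 190 genes of high ICC, and within 20 Mb for 88.9%. This held for 19.2% of 7317 genes with a line effect and a lower ICC, and for 7.61% of 4547 genes without a line effect. By chromosome, genes of high ICC were most numerous on chromosomes 1 (22 of 707 genes described) and 7 (20 of 912), and there were 0 among 381 genes on the X chromosome.

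Nearly all members of the detoxification families differed between lines. The lists were chosen with earlier results of these data known, and their counts are set beside the background of 61.9% of genes called. All 13 Cyp4 fatty acid hydroxylases, all 21 glutathione S-transferases, all 20 glucuronosyl and sulfotransferases, and 39 of 41 cytochromes P450 of families 1 to 3 had a line effect, and 14 of 15 carboxylesterases did. With the reads per library as a covariate a line effect passed in 46.2% of all genes, and in 13, 18, 18, 36 and 13 members of these lists. Cyp2c39, a P450 of the arachidonic and retinoic acid metabolizing Cyp2c family, led its list with a line standard deviation of 1.97 log2 CPM and an ICC of 0.98. It ran from 1.63 to 7.42 in Ctr and from 1.70 to 7.66 in SD, and 21 lines formed a low and 12 a high part, with B6 at 3.15 and D2 at 6.47. Cyp4a31 spread from 0.51 to 5.06 in Ctr and from 1.49 to 5.45 in SD and was higher in B6 (4.38) than in D2 (1.64). Its relatives Cyp4a10 and Cyp4a14 were also higher in B6 (7.44 and 6.90) than in D2 (4.89 and 4.01), whereas Cyp4a32 was higher in D2 (7.09) than in B6 (6.03). These Cyp4a genes hydroxylate fatty acids, and Cyp4a10, Cyp4a31 and Cyp4a32 share between 17.6% and 46.8% of their stretches with other genes, mostly with each other. Gstp2 (2.10 to 5.21 in Ctr) shares 67.9% of its stretches with Gstp1. Ugt1a9, a glucuronosyltransferase, had an ICC of 0.936 and ran from 4.98 to 6.59 in Ctr, with 5.41 in B6 and 6.58 in D2, and 62% of its stretches occur in other Ugt1a genes.

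Among secreted proteins, all 20 major urinary proteins, the pheromone carriers of mouse urine, 19 of 20 serpins of clade A and 37 of 39 complement and coagulation factors had a line effect, and 19, 18 and 23 kept it with the depth covariate. The median line standard deviation was 0.293, 0.308 and 0.112 log2 CPM in these lists, and the complement and coagulation list had a median correlation with the log2 of the reads per library of -0.813. Mup11 and Mup12 formed a high part of 6 lines each and were higher in B6 (4.08 and 4.48) than in D2 (2.34 and 3.25), but 89.0% and 85.4% of their stretches occur in other Mup genes, so the single member is uncertain. Serpina1e, an alpha-1-antitrypsin gene (chr12:105185141-105197185), had an ICC of 0.982 and ran from 4.62 to 7.91 in Ctr. It was higher in B6 (7.56) than in D2 (4.98), the reverse of its neighbor Serpina3h, and 34.7% of its stretches occur in other Serpina1 genes. C4a, a complement C4 gene, was high in 8 lines and in D2 (9.28 against 6.48 in B6), and spread from 4.98 to 9.43 in Ctr. Cfd, complement factor D, which is made above all by adipocytes, ran from -2.77 to 4.78 in Ctr and from -2.75 to 4.73 in SD. It is one of the 4 adipocyte markers listed (Cfd, Adrb3, Cidec and Fabp4), which all had a line effect and whose summed level ran from 31.0 to 91.4 CPM in Ctr. In such bulk samples fewer cells of a type and less RNA per cell cannot be told apart. Among acute-phase proteins, 19 of 21 had a line effect (13 with the depth covariate), led by Orm3, an alpha-1-acid glycoprotein, which ran from 2.17 to 6.09 in Ctr.

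Immune genes showed line effects in 40 of 41 interferon-stimulated genes and in 18 of 19 MHC class I and II genes, and 38 and 17 kept them with the depth covariate. The median ICC of the interferon-stimulated genes was 0.615 and none reached 0.9. Oas3, an antiviral oligoadenylate synthetase, ran from 0.09 to 3.46 in Ctr and Ifi44 from 2.51 to 5.45, without a called parental difference in either (adjusted p = 0.174 and 0.56, limma). H2-T10, a class I gene, was high in 8 lines and in D2 (5.15 against 2.71 in B6), and shares 40.5% of its stretches with relatives. All 9 Kupffer cell markers listed had a line effect and all 9 kept it with the depth covariate. Their summed level ran from 368 to 835 CPM in Ctr and from 364 to 1046 in SD. Marco, a scavenger receptor of macrophages, went from 1.95 to 5.46 in Ctr and from 1.66 to 7.11 in SD (r = 0.767 and rho = 0.761 over 33 lines, adjusted permutation p = 1.71e-05 and 1.8e-05, r = 0.705 without the 2 lines farthest from the median). It did not differ detectably between B6 (4.50) and D2 (3.64; adjusted p = 0.234, limma). Of the other cell types, 3 of 11 B cell and 5 of 7 T and NK cell markers had a line effect, and the summed B cell markers ran from 20.4 to 72.3 CPM in Ctr and from 14.2 to 41.1 in SD. Of the 27 exocrine pancreas markers only Cela1 and Cela2a were listed, and Cela2a was high in 19 lines and in B6 (1.54) and low in D2 (-2.31).

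The metabolic lists had smaller line differences at the median than the detoxification lists, in which the median line standard deviation lay between 0.137 and 0.247 log2 CPM. In the lists of fatty acid and triglyceride synthesis 24 of 27, of fatty acid oxidation and PPARA targets 30 of 31, of bile acid synthesis and transport 18 of 21 and of cholesterol synthesis and uptake 18 of 24 genes had a line effect. With the depth covariate 21, 19, 17 and 12 had one, and the 12 of 24 in the cholesterol list lay near the 46.2% of all genes. It was between 0.1 and 0.118 log2 CPM in the 4 metabolic lists, close to the 0.115 of all genes. Single members stood out. Cyp39a1, an oxysterol hydroxylase of bile acid synthesis, ran from 2.07 to 6.54 in Ctr and from 1.97 to 7.11 in SD (r = 0.935 and rho = 0.825 over 33 lines, adjusted permutation p = 1.71e-05 and 1.8e-05, r = 0.909 without the 2 lines farthest from the median). Its 3 lowest lines were BXD56, BXD65 and BXD97, a subline of BXD65, at 1.97 to 2.55 in either pool, below both B6 (6.23) and D2 (4.40). Mlycd, malonyl-CoA decarboxylase, which opens the way to fatty acid oxidation, lay low in 14 and high in 19 lines, with D2 (5.76) below B6 (adjusted p = 1.62e-08, limma). Cyp7a1, the rate-limiting enzyme of bile acid synthesis, had a line standard deviation of 0.19, above the median of its list (0.108). Acot11, a thioesterase from the list of genes with known variants between the parental strains, ran from 2.55 to 6.58 in Ctr and from 0.05 to 6.26 in SD, with an ICC of 0.91. In that list 26 of 29 genes had a line effect, against 61.9% of all genes, and 21 had one with the depth covariate. An ICC of at least 0.9 was found in 8, against 1.6% of all genes. Its members were picked for known variants, and the paper reported Acot11 and Cyp4a32 from these same lines. Nothing is therefore read from these counts.

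Without the depth covariate, the lists of genes following time of day or stress hormones had the lowest median ICC of the 22 pathway lists. With it they did not: the median was 0.337 for circadian clock and 0.352 for glucocorticoid-responsive genes. It was lower for respiratory chain subunits (0.269), cholesterol synthesis and uptake (0.314) and proteasome subunits (0.315). Of 20 circadian clock genes 14 had a line effect (10 with the depth covariate), with a median ICC of 0.279, and of 16 glucocorticoid-responsive genes 9 did (7 with it), with a median ICC of 0.358. Both counts lay near the background of 61.9%. The median error between the pools of a line was 0.235 and 0.363 log2 CPM in these lists, against 0.159 over all genes. In the clock list, the BXD85 Ctr library was the highest or lowest Ctr library in 14 of the 20 genes. How far it lowered the median ICC of that list was not tested. Sult1e1, estrogen sulfotransferase, was the most variable of the glucocorticoid-responsive genes and ran from -2.77 to 5.54 in Ctr and from -2.75 to 5.64 in SD, with an ICC of 0.589, while B6 (0.59) and D2 (0.35) stood close together. Of 17 cytosolic heat shock genes 13 had a line effect without and 8 with the depth covariate. Hspa8, the constitutive heat shock cognate protein, was repeatable with an ICC of 0.918 at a small line standard deviation of 0.28, and the inducible Hspa1a was not, with an ICC of 0.115.

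Housekeeping lists had line effects that largely moved with depth. Of 73 cytosolic ribosomal proteins 71 had a line effect, of 73 respiratory chain subunits 70, and of 31 proteasome subunits 31, but with the depth covariate 19, 4 and 7 did. Their median correlation with the log2 of the reads per library was -0.923, -0.925 and -0.866. A few members varied apart from depth: Rplp0, Rps18 and Rpl29 of the ribosome had ICC values of 0.991, 0.985 and 0.98 with the covariate, and Psmb5, a catalytic proteasome subunit, had 0.966. Rpl29 (3.33 to 5.97 in Ctr, B6 5.67, D2 3.55) shares 76.5% of its stretches with other gene models, Rps18 57% and Rplp0 34.1%. Psmb5 shares none with the protein-coding transcripts searched. The most abundant hepatocyte genes moved with depth in the same way. Alb, the albumin gene, was counted at 3514 to 3819 reads in every library while the library totals differed by more, its log2 CPM correlated with the log2 of the reads per library at r = -0.984, and its line standard deviation was 0.131 without and 0.0243 with the covariate. Ttr, transthyretin, was counted at 1125 to 1241 reads (r = -0.985). Among 108 genes with at least 1 read per exonic base on average the median r was -0.956, 107 had a line effect without and 42 with the depth covariate, and the median line standard deviation went from 0.116 to 0.0297. Of the 15 hepatocyte markers 14 had a line effect without and 6 with the covariate. What in the preparation of the libraries or the counting held these reads constant was not tested.

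**Figure D4:**
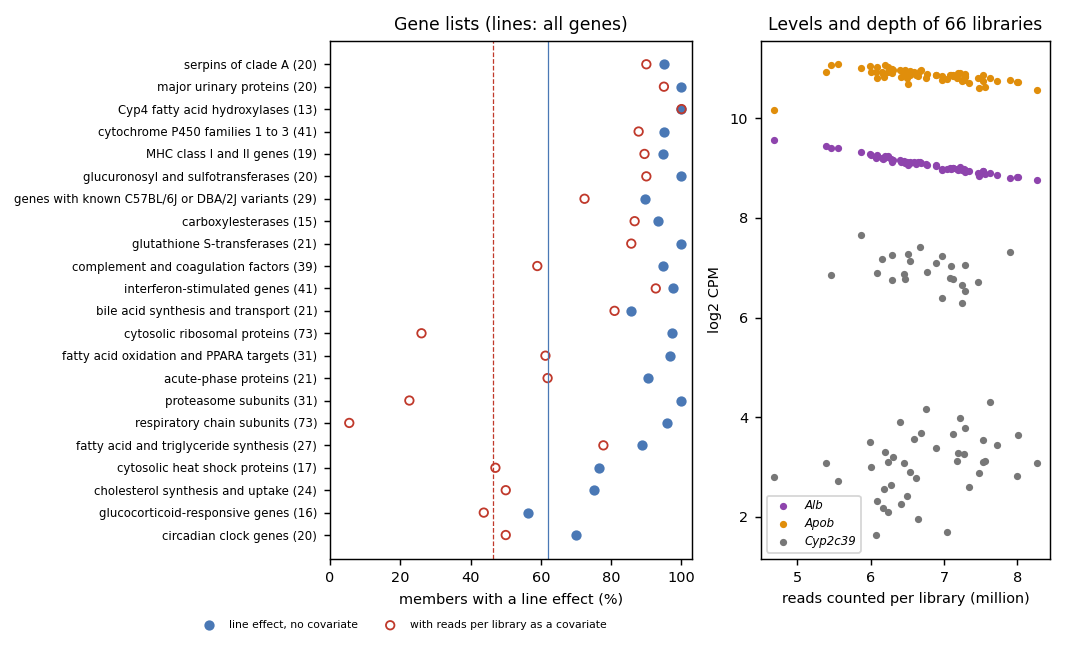
Left, share of the members of each gene list (number described in brackets) with a line effect, without (filled) and with (open) the reads per library as a covariate; vertical lines give the same shares over all genes. Right, level (log2 CPM) against reads counted per library for Alb, Apob and Cyp2c39 in 66 libraries; respiratory chain subunits fall from 70 to 4 of 73, and Alb declines with depth at r = -0.984.

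Some genes differed widely between the line means and little of that spread was repeatable. The 6 genes with the largest spread of line means among those without a line effect were Fmr1nb, Pnpla3, Tnnt2, Ces2b, Cdhr2 and Kntc1. All but Tnnt2 passed the F-test under at least 1 alternative, for example Pnpla3 and Cdhr2 with voom weights (adjusted p = 0.00425 and 0.00937) and Fmr1nb without the sublines (adjusted p = 0.00823), so the absence of a call depends on the processing. Pnpla3, a lipid droplet enzyme that responds to feeding, ran from -0.85 to 5.47 log2 CPM in Ctr with a median of 3.62, and from -1.61 to 4.89 in SD with a median of 1.88 (r = 0.186 and rho = 0.188 over 33 lines, adjusted permutation p = 0.318 and 0.31, r = 0.196 without the 2 lines farthest from the median). Ces2b, a carboxylesterase, ran from 0.01 to 5.07 in Ctr and from 0.99 to 5.75 in SD, with an ICC of 0.202. The error between the pools of a line was 1.32 and 1.02 log2 CPM in these genes, larger than their line standard deviations of 0.62 and 0.52. This error includes any response to SD that differed between lines, which the design cannot separate from it. The other 4 had mean levels between 0.02 and 1.36 log2 CPM and reached the floor of the values in at least 1 library.

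The spread over lines after SD was compared with that in Ctr by the Pitman-Morgan test, which asks whether paired values differ in variance. It passed in 1576 of 12882 genes (12.2%), with the larger variance after SD in 1519, but this rested on 1 library: without BXD70 it passed in 100 genes, with the larger variance after SD in 84. The largest increases, in Megf9, Sepsecs and Masp1, came with the BXD70 SD library at 2.06, 4.15 and 5.92 log2 CPM, whereas the remaining SD libraries lay at or above 4.69, 5.96 and 7.43. None of these 3 passed without BXD70. The largest decreases were kept without it. Rgs16, a regulator of G protein signaling with a daily rhythm, ran from 3.01 to 7.63 in Ctr and from 6.19 to 7.91 in SD, and its variance after SD was 0.189 times that in Ctr (adjusted p = 0.00112). Usp2, a clock-controlled ubiquitin protease, ran from 2.58 to 7.18 in Ctr and from 5.67 to 7.61 in SD (ratio 0.241, adjusted p = 0.00258), and Ugt2b38, a glucuronosyltransferase, from 1.62 to 6.49 and from 4.10 to 6.71 (ratio 0.269, adjusted p = 0.0011). For Rgs16 and Usp2 the lowest Ctr library was BXD85 and for Ugt2b38 it was BXD71. With ranks in place of values none of the 3 passed (adjusted p = 0.196, 0.181 and 0.167).

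In cortex, whose libraries came from the same lines and conditions and held 19025159 to 28998853 reads, 155 of the 206 genes were listed. By limma's F-test on the difference of liver and cortex, the line effect differed between the tissues in 149 of them (96.1%) and in 6126 of 11871 genes (51.6%) over all those described and listed in both. The test holds the liver values by which the 206 genes were chosen, which raises their share, so nothing particular to them is read from it. A line effect in cortex alone passed in 136 of the 155, and 50 had an ICC of at least 0.9 there. The correlation of liver and cortex line means had a median of 0.659, reached 0.8 in 66 genes and was below 0 in 42. Trim12a, Gm14403, 2610507I01Rik and Serpina3h divided the lines alike in both tissues, at r between 0.97 and 0.99 over 33 lines. Mrap2 was different: in cortex its line standard deviation was 0.20 against 3.89 in liver, and the correlation was -0.70. Likewise Disp2 and Adra1d, with means of 8.94 and 5.28 log2 CPM in cortex, varied there by line standard deviations of 0.05 and 0.10 against 2.67 and 2.74 in liver. Olfr1033, Acpp, Ifi202b, Ctse, Tmc5, Nuggc, Mug2 and Hc were not listed in the cortex tables.

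In 4 genes of high ICC a single line stood apart from the other 32 in both of its pools, across a gap of over 50% of the range of the line means, while both parents lay with the majority. Fuca2, Rbm20 and Serpinb8 also had a single line apart, across a gap of between 33.3% and 50% of the range. The rule for the 4 genes required both parents on the same side of the gap. It was chosen after the values had been seen, and it gives a description only. Phkb, the beta subunit of phosphorylase kinase, which activates glycogen breakdown (chr8:88364858-88585275), was at 3.98 log2 CPM in Ctr and 3.92 in SD in BXD67, whereas the other lines ran from 6.38 to 7.37. In cortex BXD67 was again the lowest, at 3.41 and 3.45 against 5.07 to 5.63 in the 64 other libraries. Angel1 (chr12:88041452-88067410) was at 0.47 and 0.97 in BXD90, against 3.97 to 5.25 in the rest. Its cortex levels in BXD90 were 3.16 and 2.29, against 2.95 to 4.07. Wnt5b, a secreted Wnt ligand (chr6:119382549-119494336), was at 0.67 and 0.76 in BXD56, against 3.26 to 4.88, and its cortex levels there (0.08 and -0.04) lay within the range of the others. Hamp, hepcidin, the hormone that limits iron uptake (chr7:31727390-31729036), was at 2.95 and 1.66 in BXD81, against 4.62 to 6.25 in the rest. Of its stretches 17.5% also occur in Hamp2, and it was not listed in cortex.

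**Figure D5:**
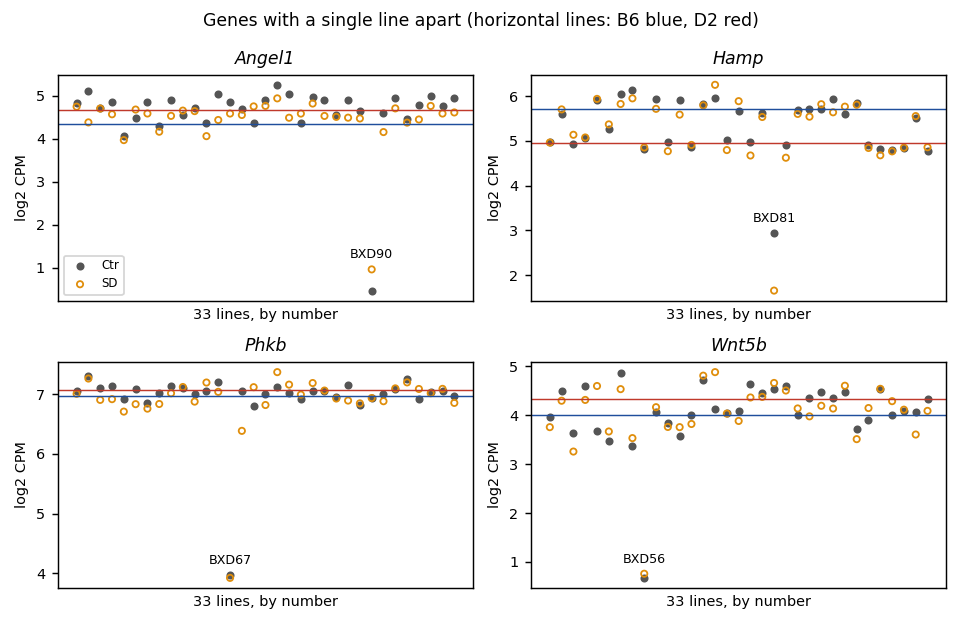
Levels (log2 CPM) of Angel1, Hamp, Phkb and Wnt5b in the Ctr (filled) and SD (open) liver pools of 33 lines ordered by line number, with the B6 and D2 means as horizontal lines. A single line stands apart in each panel, BXD90, BXD81, BXD67 and BXD56, and both parents lie with the other 32 lines. The genes were chosen with both parents on the same side.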

How the data were processed

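The authors sequenced stranded mRNA libraries single-end, used STAR for the alignment to mm9 and HTSeq for counts per RefSeq gene, left out genes of low count, and deposited log2 CPM values scaled by edgeR's TMM factors with a small prior count, in 1 table per tissue and condition. Library totals were computed from the values, since whole reads could be recovered for 100% of values (within 0.02 reads).

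The 33 BXD/RwwJ lines were fitted with limma 3.58.1 in R 4.3.3 (level on condition and line, variance trend), and p-values were adjusted by Benjamini-Hochberg over all 14107 genes. The ICC and the line standard deviation came from the mean squares of the same fit. B6 against D2 was fitted with condition as covariate over 8 libraries, and the spread between libraries there covers 2 collection rounds. Correlations of named genes used 100000 two-sided permutations (smallest p 1e-05), adjusted over the 108 named genes. The Pitman-Morgan test was computed in R 4.3.3. The fits were tested on simulated data.

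Named were the 15 genes of largest line standard deviation at an ICC of at least 0.9, the 5 abundant genes, the 6 most variable genes without a line effect, the 3 largest increases and decreases of variance, and the leading member of each list. List examples and the rule for single lines apart were chosen after the values were seen. The members and lists were chosen with earlier results of these data known. Positions are those of GENCODE M1 on mm9, matched by symbol for 12054 of the 12882 genes. Shared sequence is the share of 50-base stretches of a gene's longest protein-coding transcript found in protein-coding transcripts of other genes. Copies without a protein-coding transcript in the annotation were not searched. The 4 older BXD/TyJ lines entered only as an alternative.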

Additional observations from a re-analysis of the deposited data

Results flagged for a closer look

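Among the 20 genes with the largest line standard deviation, overall or among abundant genes, 12 were listed in cortex and in each of these the line effect differed between liver and cortex (limma's F-test on liver minus cortex over 33 lines in Ctr and SD, adjusted p). These genes were chosen on the liver values that enter the test, so their p-values are given as a description. The differences with little line variation in cortex were Mrap2 (5.75e-28), Disp2 (1.9e-18), Adra1d (5.33e-14), Sema3e (3.36e-13), Gm5077 (3.71e-12) and Abca3 (1.19e-10). Abcc6 (1.76e-07) ran opposite in the tissues, with r = -0.77 over the line means. 2610507I01Rik (5.42e-10), Trim12a (1.06e-08), Gm14403 (2.29e-05), Serpina3h (0.00419) and Aox3 (0.0243) divided the lines alike in both tissues (r from 0.82 to 0.99) but by different amounts. Trim12a, for example, had a line standard deviation of 3.59 log2 CPM in liver and 2.53 in cortex, at a mean of -1.12 there.

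In 5 of 40 sets of 4 parental libraries looked at, 1 library lay far from the other 3. These were Olfr1033 at -1.60 log2 CPM in D2, Ifi202b at -1.28 in B6, Gm14403 at 0.75 in D2, Adra1d at -1.74 in B6 and 2610507I01Rik at 5.64 in B6. Chance flags about 1 in 20 such sets where values are continuous. In the first 2 and in Adra1d the strain is the low one and the value stands for a few reads. That rate does not apply to these 3 sets, whose other values lie near the floor.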

How the results depend on the processing

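The count of genes with a line effect (7973) ranged from 5956 with the reads per library as a covariate to 8999 without BXD70, an alternative chosen after seeing the data, over all alternatives run, and from 7150 (without BXD50) to 8999 when each line was left out. The count of genes with an ICC of at least 0.9 (206) ranged from 190 (voom weights) to 246 (depth covariate), and the median ICC from 0.359 (without BXD50) to 0.433 (without BXD70). The SD effect passed in 5573 genes without and 7167 with the line as a replicate block, in which the Ctr and SD pools of a line are paired. The count of B6 and D2 differences (2354) was 1340 without B6 replicate 2 and 1518 without D2 replicate 1, in a range of 1340 to 1663 over the 4 rounds left out. The count of genes with unequal variance in Ctr and SD (1576) was 144 with Spearman's rho, 100 without BXD70, and 100 to 1871 when each line was left out (1350 or more for every line but BXD70). The cause of these shifts was not tested. Of 1080 alternative values for the 108 named genes, 36 changed side of the threshold, in 22 genes, and none of these was among the 15 genes of largest line standard deviation, whose estimate stayed within 0.964 to 1.14 times the main one. With 2 pools per line, a line effect at low counts was the hardest to detect, and shared conditions of a line's cohort remain in its ICC.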

Other observations

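The Ctr library of BXD85 held circadian clock genes outside the range of all other lines. In 14 of the 20 clock genes described it was the highest or the lowest of the 33 Ctr libraries, whereas it was outermost in 8.89% of all genes, and the next libraries by this count were BXD70 SD with 7 and 3 libraries with 5 each. Arntl, the activator at the core of the clock, stood at 6.81 log2 CPM against 3.05 to 5.38 in the other 32 Ctr libraries, and its partner Npas2 at 4.95 against -1.14 to 3.27. Their targets stood low: Dbp at 4.98 against 6.67 to 7.55, Per3 at 2.74 against 5.10 to 7.21, Per2 at 4.23 against 5.65 to 6.84, and Tef at 6.67 against 7.47 to 8.22. The SD library of BXD85 lay within the range of the others for all 20 genes, with Arntl at 3.89 and Per3 at 6.21. In its Ctr cortex library Arntl was highest (5.91 against 5.40 to 5.90) and Bhlhe41 and Tef (8.46 against 8.54 to 8.88) were among the genes at which it was lowest, whereas Npas2, Dbp, Per2 and Per3 lay within the range of the other lines. Fewer mice were pooled for BXD85, and the part of this in the values was not tested.

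The lines were compared by the side they took in 90 genes of high ICC with a wide gap, at least 6 lines in both parts, and every line on the same side in Ctr and SD. The known subline pairs took the same side most often, BXD73 and BXD103 in 94.4%, BXD48 and BXD96 in 93.3% and BXD65 and BXD97 in 91.1% of the genes. The next pair, BXD43 and BXD100, agreed in 83.3%, and BXD71 and BXD85 in 81.1%, against a median of 51.1% over 528 pairs and a minimum of 30%. No label gives BXD43 and BXD100 as sublines.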
